A study of Rattus norvegicus with 11 samples.

Results

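Renal cortex of diabetic rats that had undergone Roux-en-Y gastric bypass (DM+RYGB) was compared with renal cortex of healthy rats that had undergone a sham operation (Control+Sham), which shows how far the operated diabetic kidney lay from the healthy level. The groups were taken from the sample titles and hold 2 DM+RYGB arrays and 3 Control+Sham arrays, 5 of the 11 arrays of the series. All rats were Sprague Dawley. Type 1 diabetes was induced in the DM+RYGB rats with streptozotocin (STZ), which kills pancreatic beta cells, and their bypass followed 4 weeks after it; the cortex was taken after a further 4 weeks. The Control+Sham rats are described only as Sprague Dawley controls with a sham operation on the same schedule. The other groups were diabetic rats with a sham operation (DM+Sham) and controls with bypass (Control+RYGB), with 3 arrays each, and each shares Control+Sham as its reference here. The labels state neither whether replicates came from separate animals nor the hour of collection, body weight or blood glucose. The p-values therefore measure the spread between arrays, pooled over all groups of the series, which may be technical. Because the 2 groups differ in both diabetes and operation, the 2 cannot be told apart in this comparison.

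The cortex is made up mostly of proximal tubules, which take back filtered glucose, amino acids, bicarbonate, phosphate and proteins and secrete organic ions. Glomeruli with their podocytes, the distal convoluted tubule and the cortical collecting duct with its principal and intercalated cells make up most of the rest. Streptozotocin diabetes loads the proximal tubule with glucose and is known for renal growth, changed lipid handling and oxidative stress. Gastric bypass joins a small stomach pouch to the jejunum, so that meals miss the rest of the stomach and the duodenum. The study's title concerns the synthesis of NADPH, the cofactor of antioxidant and lipid-building enzymes and of NADPH oxidases, and AMPK, a kinase that senses cellular energy.

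Each value below is a log2 signal relative to the 75th percentile of its array, and a difference is the DM+RYGB mean minus the Control+Sham mean with the standard error (SE) of limma, fitted over all groups. That percentile ranged from 1541 to 4454 signal units over the 11 arrays (1614 and 1606 in DM+RYGB, against 2031, 1541 and 4454 in Control+Sham). Spots well above background made up 91.2% and 89.9% in DM+RYGB and 80.2%, 77.7% and 90.5% in Control+Sham. The median difference of all 25250 genes tested, 14358 of them named, was 0.59, 0.24 and -0.02 with 75th percentile, median and quantile scaling, so a gene was called changed only if it passed an adjusted p of 0.05 in 1 direction with all 3 scalings and if both DM+RYGB arrays lay beyond all 3 Control+Sham arrays. By this rule 6841 genes changed (27.1%), 3815 of them higher (15.1%) and 3026 lower (12%) in DM+RYGB. Every list count below is to be read beside these shares of higher and lower genes. With 75th percentile scaling alone 60.5% of genes passed, 48.5% higher and 12% lower, so that 80.2% of those that passed were higher; that share was 59.1% with median and 42.5% with quantile scaling. Among the changed genes, 3114 (12.3%) lay at least 2-fold higher and 780 (3.09%) at least 2-fold lower on both DM+RYGB arrays. No scan day held arrays of both groups, so day and group cannot be told apart directly. With 75th percentile scaling alone, 8.96% of genes were higher and 7.58% lower in DM+Sham, and 21.6% and 5.5% in Control+RYGB, than in the same controls, and DM+RYGB was higher than DM+Sham in 41.9% and lower in 10.9%. The differences and adjusted p given below for DM+Sham and Control+RYGB, and for DM+RYGB against DM+Sham, also use that scaling alone. They were not put to the rule of 3 scalings, so small ones are to be read beside these shares. With the 11 arrays kept separate, 8242 genes changed without a block (7 residual degrees of freedom). With a block for scan day 1827 changed, 864 of them higher and 963 lower (3 residual degrees of freedom). In that fit only DM+Sham 3 linked the scan days of the 2 groups, and Control+Sham 1 was alone on its day. Values given below with scan day as a block therefore rest on 1 linking array, itself nearly identical to DM+Sham 2.

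The 2 DM+RYGB arrays differed from each other more than the Control+Sham arrays did (a spread of 0.42 log2 units, against 0.12 to 0.25). The SE and p-values use 1 spread estimate shared by all groups, so they can understate the spread of DM+RYGB. With only the 2 groups fitted, 5098 genes changed. DM+RYGB 2 carried transcripts of heart muscle. The 15 measured markers of heart muscle averaged -4.42 in DM+RYGB 1 and 3.43 in DM+RYGB 2, against -5.98, -5.88 and -5.59 in the Control+Sham arrays. The troponin gene Tnnt2 was at -1.86 and 6.54 in DM+RYGB, against -2.27, -2.26 and -2.44 in Control+Sham, and the cardiac actin gene Actc1 at -1.23 and 5.49, against -2.70, -2.84 and -2.99. DM+RYGB 1 lay above the control mean by 0.47 for Tnnt2 and by 1.61 for Actc1, and DM+RYGB 2 lay far above it for both. Without DM+RYGB 2, 7 of the 15 markers rose and 1 fell, and without DM+RYGB 1 all 15 rose. Of the list only Myh7, a cardiac myosin, met the rule, at -5.12 and 5.48 in DM+RYGB and -9.76, -9.36 and -8.12 in Control+Sham, where it was well above background on 1 of 3 arrays; its difference was 3.96 without DM+RYGB 2 and 14.57 without DM+RYGB 1, and it did not meet the rule with any 1 Control+Sham array left out (8.92 to 9.74). Red blood cell genes averaged -1.79 and 0.45 in DM+RYGB, against -1.25, -1.11 and -1.18 in Control+Sham, so the 2 arrays lay on either side of the controls. Of 10 such genes, 2 rose and 6 fell without DM+RYGB 2, and 5 rose and none fell without DM+RYGB 1. Without DM+RYGB 2, 7131 genes changed, and without DM+RYGB 1, 6990. Their part in the results below was not tested, beyond the values given without 1 array.

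**Figure D1:**
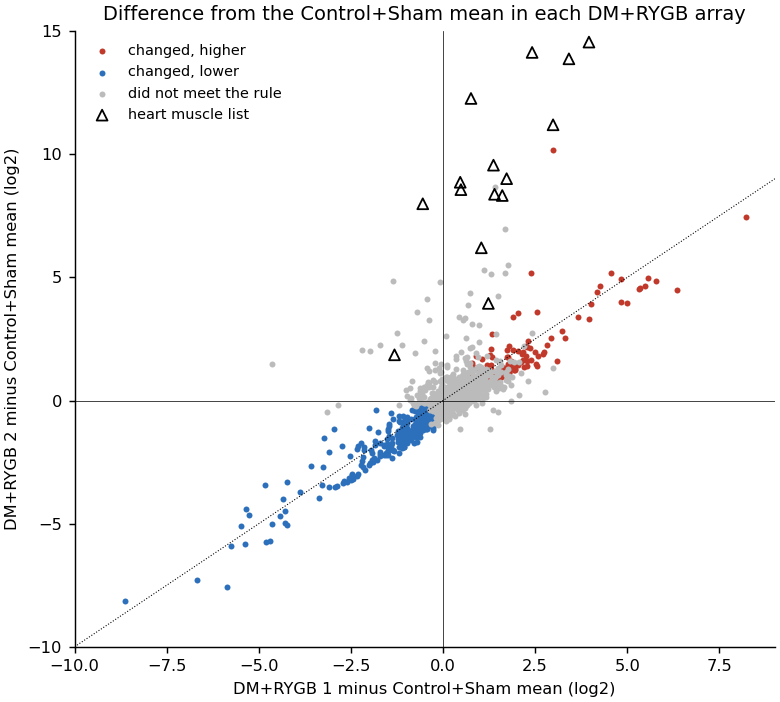
Each point is 1 gene of the lists or of the largest changes, placed by its difference from the Control+Sham mean in DM+RYGB 1 (x axis, log2) and in DM+RYGB 2 (y axis, log2); red and blue points met the rule for a change, grey points did not, and triangles are the heart muscle list. The heart muscle genes all lie above the dotted line of equal differences, with Tnnt2 at 0.47 on the x axis and 8.87 on the y axis and Myh7 at 3.96 and 14.56.

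Proximal tubule genes were mostly lower. Of 36 measured markers 22 fell and 1 rose, beside 12% and 15.1% of all genes, and the median difference was -0.69, beside 0.59 over all genes. Without DM+RYGB 2, 18 fell; with scan day as a block, 11 fell. The basolateral bicarbonate cotransporter Slc4a4 was at -0.10 and 0.09 in DM+RYGB, against 3.85, 3.82 and 3.71 in Control+Sham, a 13.9-fold lower level (difference -3.80 ± 0.11 SE, adjusted p = 1.64e-05). The lactate and pyruvate carrier Slc5a12 was at -2.11 and -2.81 in DM+RYGB, against 2.23, 2.37 and 1.95 in Control+Sham (-4.64 ± 0.23, adjusted p = 9.16e-05); its second probe gave -2.94. In both genes the groups were far apart and the arrays within each group close together. Smaller falls were those of the peptidase Dpp4 (-1.94), the endocytic receptor Cubn (-1.74), the water channel Aqp1 (-1.31) and the transcription factor Hnf4a (-0.49), which drives proximal tubule genes. The marker that rose was Pck1, the gluconeogenic enzyme PEPCK, at 4.73 and 3.95 in DM+RYGB, against 3.19, 3.02 and 2.79 in Control+Sham; without DM+RYGB 1 its difference of 0.95 did not meet the rule. Hnf4a was at -0.25 without DM+RYGB 2, and did not meet the rule with any 1 Control+Sham array left out (-0.49 to -0.47). In whole cortex, fewer cells of a type and less RNA per cell cannot be told apart.

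Carriers of glucose and amino acids fell in 14 of 22 measured cases and rose in none (median -0.71). Slc2a2, the glucose carrier GLUT2 of the basolateral membrane, was at -0.65 and -1.23 in DM+RYGB, against 2.73, 2.85 and 2.58 in Control+Sham (-3.66 ± 0.19, adjusted p = 0.0001). Slc5a2, the luminal sodium-glucose carrier SGLT2, was at 2.94 and 2.31 in DM+RYGB, against 4.36, 4.45 and 4.10 in Control+Sham (-1.68 ± 0.20, adjusted p = 0.00107). Both groups of arrays were separate for these carriers, and the fall of Slc2a2 exceeded that of Slc5a2. Slc5a1, the SGLT1 of the later proximal tubule, did not meet the rule, with a difference of -0.16 ± 0.12 (adjusted p = 0.277). The amino acid carriers Slc7a7 (-2.98), Slc6a19 (-2.95) and Slc7a8 (-2.43) fell as well.

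Organic ion and drug transporters fell in 13 of 26 cases, and 1, the anion carrier Slco3a1 (1.04), rose; without DM+RYGB 1, 4 rose. The efflux pump Abcc2 was at -2.84 and -3.25 in DM+RYGB, against 0.21, 0.13 and 0.43 in Control+Sham (-3.31 ± 0.16). The cation exporter Slc47a1 (-2.76) and the urate exporter Abcg2 (-2.31) also fell. The anion carrier Slco1a1 was at -0.64 and -1.24 in DM+RYGB, against 2.22, 2.22 and 2.28 in Control+Sham (-3.17 ± 0.18, adjusted p = 0.00012). Its values in DM+RYGB lay between those of the other diabetic rats and the controls, as its difference in DM+Sham from the same controls was -9.12, and DM+RYGB exceeded DM+Sham by 5.95 (adjusted p = 4.98e-05).

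**Figure D2:**
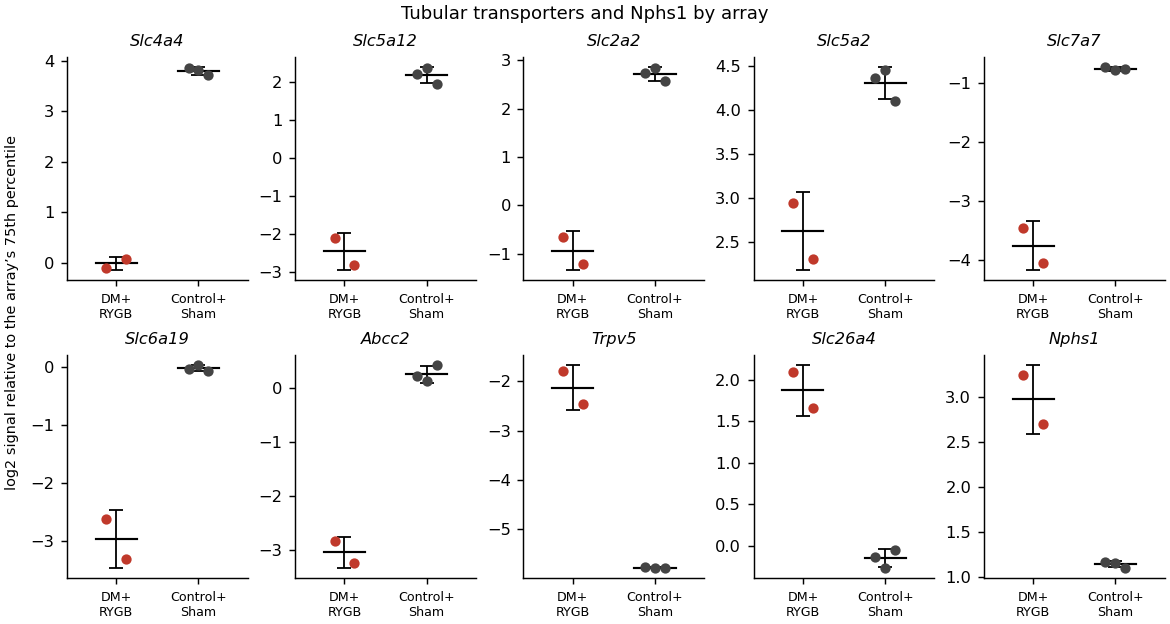
Log2 signal of 9 tubular transporters and of Nphs1 in each array, DM+RYGB in red on the left and Control+Sham in grey on the right, with the mean and SD (n = 2 and 3) and a y axis of its own for each gene. The 7 proximal transporters lie lower in DM+RYGB, and Trpv5, Slc26a4 and Nphs1 lie higher, with no overlap of arrays.

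Genes of the distal nephron and of podocytes were more often higher. In the distal convoluted tubule 7 of 12 measured markers rose and none fell, with a median difference of 1.25. The calcium channel Trpv5 was at -1.80 and -2.46 in DM+RYGB, against -5.77, -5.78 and -5.78 in Control+Sham (3.65 ± 0.19, adjusted p = 9.76e-05), with 1.90 by its second probe. The sodium-calcium exchanger Slc8a1 (2.25), the calcium-binding protein Calb1 (2.01), the growth factor Egf (1.85) and the thiazide-sensitive carrier Slc12a3 (1.27) rose with it. All of these take part in calcium or sodium handling except Egf. Of 11 markers of the loop of Henle the potassium channel Kcnj1 (1.13) met the rule; the loop's main product Umod was at 7.06 and 6.07 in DM+RYGB, against 5.13, 5.21 and 4.52 in Control+Sham, but its difference of 1.61 did not pass with all scalings. Without DM+RYGB 2, 6 of these 11 rose and none fell. Without DM+RYGB 1 none rose and 2 fell, with Kcnj1 at 0.80; Kcnj1 was also lost without Control+Sham 1 (1.11), and with scan day as a block none of the 11 met the rule.

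Intercalated cells, which secrete acid or bicarbonate, had 8 of 12 markers higher and none lower. Slc26a4, the bicarbonate exchanger pendrin, was at 2.09 and 1.65 in DM+RYGB, against -0.14, -0.27 and -0.05 in Control+Sham (2.02 ± 0.15, adjusted p = 0.000275). Slc4a9 (2.20), the proton pump subunits Atp6v1b1 (1.65) and Atp6v0d2 (1.26) and the ammonium channel Rhbg (1.61) rose. Among 11 principal cell markers 7 rose, among them the sodium channel subunits Scnn1b (1.92) and Scnn1g (1.48), the vasopressin receptor Avpr2 (1.59) and the transcription factor Gata3 (1.45), while the water channel Aqp4 (-1.53) and the transcription factor Elf5 (-0.69) fell. A second probe of Elf5 gave 0.35, and its difference was -0.39 without DM+RYGB 2 and did not meet the rule without Control+Sham 2 (-0.62). The mineralocorticoid receptor Nr3c2, through which aldosterone acts on these cells, rose by 1.42. With scan day as a block, 4 distal convoluted tubule, 3 intercalated and 1 principal cell markers rose.

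Podocyte markers rose in 12 of 17 cases, with a median difference of 1.19. Nphs1, which encodes nephrin of the slit diaphragm, was at 3.25 and 2.71 in DM+RYGB, against 1.16, 1.15 and 1.10 in Control+Sham, a 3.58-fold higher level (1.84 ± 0.17, adjusted p = 0.000485); its second probe gave 2.22. The arrays of the 2 groups did not overlap. The podocyte transcription factor Wt1 (1.41) rose, as did Cdkn1c (1.69) and Ptpro (1.61). The calcium channel Trpc6 (-0.78) fell. In DM+Sham, Nphs1 differed from the same controls by -0.19 (adjusted p = 0.484). Among 15 endothelial markers 5 rose (Sox17, Nos3, Sox18, Esam and Tek, by 1.02 to 3.08) and Plvap (-0.73), a protein of fenestrated endothelium, fell; Sox17 was well above background on 1 of 3 Control+Sham arrays. Of the mesangium and smooth muscle list 4 of 14 rose, including the contractile genes Myh11 (1.01) and Smtn (1.15). With DM+RYGB 2 left out, Plvap was at -0.40 and Trpc6 at -0.45, and Sox17 (2.56) and Sox18 (1.06) did not meet the rule, nor did Sox17 without Control+Sham 1 or 2 (2.78 and 2.77), Sox18 with any 1 Control+Sham array left out (1.34 to 1.43) and Nos3 without Control+Sham 1 (1.52). With scan day as a block, no endothelial, mesangial or smooth muscle marker met the rule. Markers of macrophages (2 of 18 lower, Fcgr1a and Adgre1) and of lymphocytes (2 of 16 lower, among them Ptprc) mostly did not meet the rule.

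**Figure D3:**
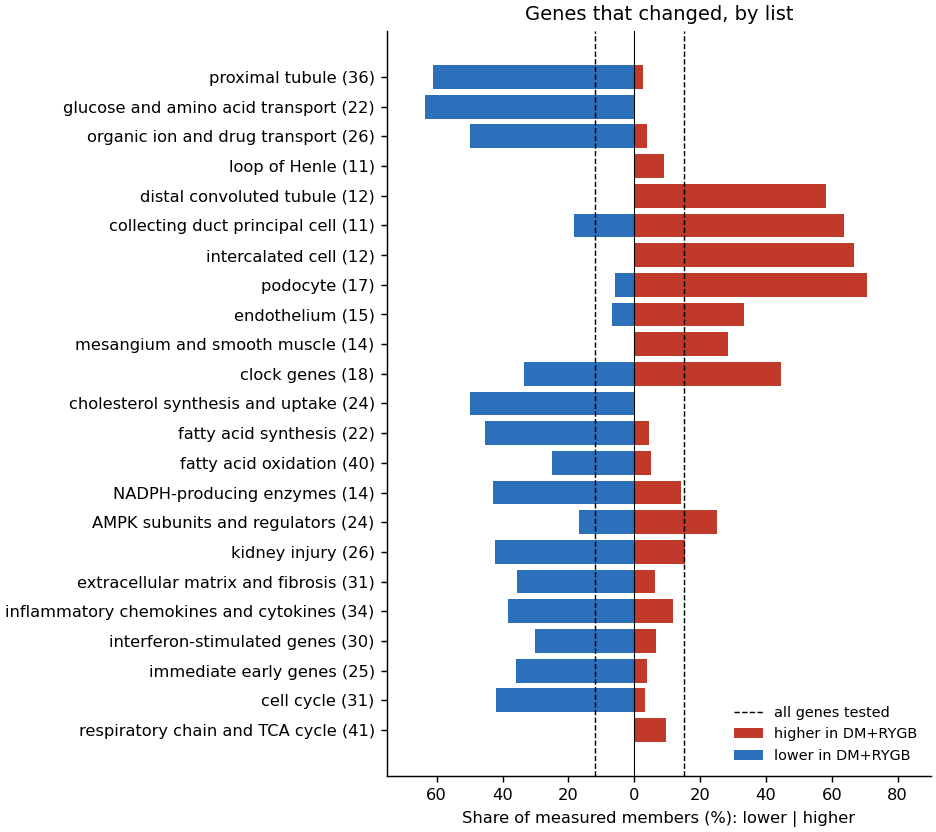
Share of the measured members of each list (number in brackets) that met the rule for a change, lower in DM+RYGB to the left in blue and higher to the right in red, in percent; the dashed lines are the shares over all genes tested, 12% lower and 15.1% higher. Proximal tubule and transport lists extend to the left, with 22 of 36 proximal markers lower, and distal and podocyte lists to the right, with 12 of 17 podocyte markers higher.

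Clock genes changed in 14 of 18 measured cases, 8 higher and 6 lower. In the clock, BMAL1 with CLOCK or NPAS2 drives genes through E-boxes, the PER and CRY proteins and CIART restrain it, and the receptors NR1D1 and NR1D2 repress Bmal1 through their own response element. Bmal1 was at -4.04 and -3.70 in DM+RYGB, against 0.41, 0.27 and 0.24 in Control+Sham, an 18.1-fold lower level (-4.17 ± 0.13, adjusted p = 2.24e-05). Ciart was at 0.45 and 0.54 in DM+RYGB, against -4.51, -4.54 and -4.10 in Control+Sham (4.88 ± 0.20, adjusted p = 5.02e-05). Dbp, a transcription factor driven by the clock, was at 5.63 and 5.23 in DM+RYGB, against 2.33, 2.65 and 2.24 in Control+Sham. These genes differed in opposite directions, each with closely spaced arrays. The promoters of Ciart, Tef and Bmal1 are shown because these changed genes hold the E-box CACGTG (Ciart, Tef) or the element TAGGTCA bound by NR1D1 and ROR receptors (Bmal1), in capitals. Each is read from RefSeq on GRCr8 and runs from 250 bases before to 50 bases after the start. They lie at chr2:186112197-186112496 on the minus strand (Ciart), chr7:115206577-115206876 on the plus strand (Tef) and chr1:176766078-176766377 on the plus strand (Bmal1).
Ciart: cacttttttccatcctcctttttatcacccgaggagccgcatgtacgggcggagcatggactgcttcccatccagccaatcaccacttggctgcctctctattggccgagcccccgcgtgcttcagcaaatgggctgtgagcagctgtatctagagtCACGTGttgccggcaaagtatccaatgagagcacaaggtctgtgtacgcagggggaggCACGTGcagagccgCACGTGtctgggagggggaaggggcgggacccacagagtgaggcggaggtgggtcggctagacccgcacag
Tef: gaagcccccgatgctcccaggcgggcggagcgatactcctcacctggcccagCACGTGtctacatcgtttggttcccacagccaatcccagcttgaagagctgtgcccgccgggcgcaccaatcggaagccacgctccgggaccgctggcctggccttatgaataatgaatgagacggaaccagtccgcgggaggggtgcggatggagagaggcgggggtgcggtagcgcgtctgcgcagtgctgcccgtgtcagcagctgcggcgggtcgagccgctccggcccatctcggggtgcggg
Bmal1: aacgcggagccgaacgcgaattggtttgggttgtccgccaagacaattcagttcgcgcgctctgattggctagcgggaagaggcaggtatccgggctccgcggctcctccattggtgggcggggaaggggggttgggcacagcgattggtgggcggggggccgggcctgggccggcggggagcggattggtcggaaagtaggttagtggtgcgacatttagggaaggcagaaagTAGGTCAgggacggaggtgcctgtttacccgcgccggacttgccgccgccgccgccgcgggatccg
The E-boxes of Ciart begin at positions -93, -35 and -21 relative to the start, that of Tef at -198 and the element of Bmal1 at -16. With both strands searched, CACGTG was found in 6.42% of the 33469 promoters of the table and in 4 of the 15 measured clock genes that have one (Bhlhe40, Ciart, Nr1d1 and Tef). TAGGTCA was found in 2.63% of promoters and among the clock genes in Bmal1 alone. These matches describe letters in a short window and do not show binding.

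Further clock genes met the rule. Nr1d1 was at -2.62 and -2.67 in DM+RYGB, against -4.84, -5.00 and -4.81 in Control+Sham (2.23 ± 0.10, adjusted p = 6.98e-05). Tef, a relative of Dbp, was at 1.30 and 1.19 in DM+RYGB, against -1.03, -1.04 and -0.83 in Control+Sham (2.21 ± 0.12). Per3 (2.73), Nr1d2 (1.98), Per2 (1.50) and Cry2 (1.10) also rose. Npas2, the partner of BMAL1, fell by 2.98, although its second probe gave 0.99, and the repressor Nfil3 fell by 1.32. The other 3 that fell were Clock (-0.66), the repressor Cry1 (-0.61) and Csnk1d (-0.35), a kinase of the PER proteins, whose second probe gave 1.01 and which did not meet the rule without Control+Sham 1 (-0.33). The genes that fell included both activators and repressors of the clock. Per1 was at -3.59 and -4.07 in DM+RYGB and -5.08, -5.22 and -4.69 in Control+Sham, without overlap, but did not pass with all scalings. In DM+Sham the differences from the same controls were -1.25 for Bmal1, 1.12 for Ciart, 1.42 for Dbp and 0.36 for Nr1d1, and DM+RYGB differed from DM+Sham by -2.92 for Bmal1 (adjusted p = 0.000135) and by 3.76 for Ciart (adjusted p = 0.000239). With scan day as a block, 6 clock genes rose and 3 fell. With normexp background correction 6 rose and 1, Bmal1 (-2.69), fell. Npas2 (-1.004), Nfil3 (0.16), Clock (-0.024), Cry1 (-0.38) and Csnk1d (-0.44) did not meet the rule there. The part of the time of collection was not tested.

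**Figure D4:**
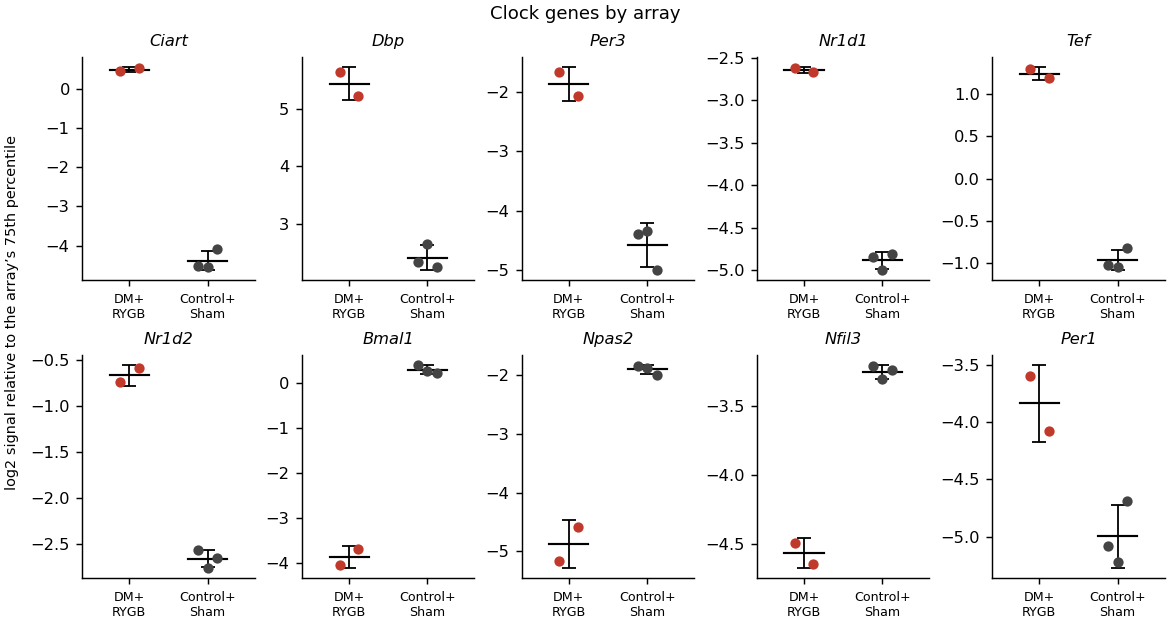
Log2 signal of 10 clock genes in each array, DM+RYGB in red on the left and Control+Sham in grey on the right, with the mean and SD (n = 2 and 3) and a y axis of its own for each gene. Bmal1, Npas2 and Nfil3 lie lower in DM+RYGB and the other genes higher, with no overlap of arrays in any of them; Per1 did not meet the rule.

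Transcripts of lipid synthesis genes were more often lower than higher. Of 24 measured genes of cholesterol synthesis and uptake 12 fell and none rose (median -0.35). Among them were the last-step enzyme Dhcr7 (-2.17) and the cholesterol carrier Stard4, which was at -1.29 and -0.77 in DM+RYGB, against 0.92, 0.91 and 1.01 in Control+Sham (-1.97 ± 0.16, adjusted p = 0.000317); its second probe gave -1.25. Of 22 fatty acid synthesis genes 10 fell. The synthase Fasn was at -0.76 and -1.13 in DM+RYGB, against 1.02, 0.94 and 0.90 in Control+Sham (-1.90 ± 0.13, adjusted p = 0.000204), with both DM+RYGB arrays well below the controls. The elongase Elovl2 (-2.65) and the desaturase Scd2 (-1.64) fell, and the acyltransferase Agpat2 (0.99) rose. In DM+Sham, Stard4 differed from the same controls by -1.21, Fasn by -1.51 and Scd2 by -2.33. DM+RYGB differed from DM+Sham by -0.77 in Stard4 (adjusted p = 0.011), by -0.38 in Fasn (adjusted p = 0.056) and by 0.69 in Scd2 (adjusted p = 0.00989).

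Among 40 genes of fatty acid oxidation and PPAR-alpha targets 10 fell and 2 rose, beside 12% and 15.1% of all genes. The 2 that rose were the binding protein Fabp1 (1.74) and the omega-hydroxylase Cyp4a8 (2.34, with -0.05 by its second probe). Angptl4, an inhibitor of lipoprotein lipase, was at -0.60 and -0.62 in DM+RYGB, against 0.96, 1.09 and 0.74 in Control+Sham (-1.54 ± 0.14). Vnn1, a pantetheinase, was at -1.11 and -0.09 in DM+RYGB, against 1.98, 1.96 and 2.04 in Control+Sham (-2.59 ± 0.27). In DM+Sham, Angptl4 was higher than in the same controls by 1.31 (adjusted p = 0.00184), so the diabetic groups lay on opposite sides of the healthy level. The thioesterase Acot5 was at -6.42 and -7.05 in DM+RYGB, against 0.29, 0.35 and 0.14 in Control+Sham, and Acot1 fell by 1.13. This list moved with DM+RYGB 2: without that array 2 rose and 15 fell, and without DM+RYGB 1 13 rose and 10 fell, and Cyp4a8 (1.59) did not meet the rule. With scan day as a block, 1 rose and 3 fell. Of 12 ketone and monocarboxylate genes 6 fell, with the sodium-coupled carrier Slc5a8 (-2.10) beside Slc5a12; with scan day as a block, 2 fell.

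Genes of bile acid conjugation, a step best known from the liver, fell: Slc27a5, which activates bile acids, was at -3.99 and -4.59 in DM+RYGB, against -0.95, -1.03 and -1.20 in Control+Sham (-3.23 ± 0.18), and Baat, which joins them to amino acids, fell by 1.86. In DM+Sham both were higher than in the same controls, by 2.12 (adjusted p = 0.000907) and 1.79 (adjusted p = 0.00149). In the whole list 5 of 15 fell and 3 rose, the hydroxylase Cyp27a1 (1.74), the phospholipid pump Abcb4 (1.71) and the receptor Nr0b2 (0.90); with scan day as a block, 3 fell and none rose, and Abcb4 did not meet the rule without DM+RYGB 1 (1.58) or DM+RYGB 2 (1.84). With normexp background correction 2 of the list fell and 1 rose. Slc27a5 was then at -1.63 and did not meet the rule, while Baat (-1.27) did. Mitochondrial respiratory chain and TCA cycle genes met the rule in 4 of 41 cases, all higher, a share below the 15.1% of all genes, and their median difference of 0.48 lay below the 0.59 of all genes. Among the 4 were Cycs (1.24), Atp5po (1.13) and Sdhb (1.09). Without DM+RYGB 2 these 4 did not meet the rule and 4 genes of the list fell; without DM+RYGB 1, 7 rose, and with scan day as a block none met the rule.

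NADPH-producing enzymes, the subject of the title, fell in 6 of 14 cases and rose in 2, beside 12% and 15.1% of all genes. Idh1, the cytosolic isocitrate dehydrogenase, was at 1.08 and 0.74 in DM+RYGB, against 2.52, 2.50 and 2.38 in Control+Sham (-1.55 ± 0.13, adjusted p = 0.000327). Me1, the malic enzyme, was at 1.81 and 2.19 in DM+RYGB, against 3.05, 2.90 and 3.04 in Control+Sham (-1.004 ± 0.13, adjusted p = 0.00144). Both were lower in both DM+RYGB arrays than in any control array. H6pd fell by 0.69, but its second probe gave 0.24. The mitochondrial enzymes Me2 (2.35) and Aldh1l2 (1.50) rose; Me2 was well above background on 2 of 3 Control+Sham arrays. Idh2, the mitochondrial isocitrate dehydrogenase, had a difference of 1.14 and did not pass with all scalings. Without DM+RYGB 1 no gene of the list rose, with Me2 at 1.95 and Aldh1l2 at 1.32, and Aldh1l2 did not meet the rule without Control+Sham 1 or 2 either (1.37 and 1.46). In DM+Sham the differences from the same controls were -0.61 for Idh1 and -0.69 for Me1, and DM+RYGB differed from DM+Sham by -0.31 for Me1 (adjusted p = 0.111).

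NADPH oxidases fell in 3 of 14 cases, beside 12% of all genes. Nox4, the main renal NADPH oxidase, was at -2.58 and -3.29 in DM+RYGB, against -0.43, -0.44 and -0.55 in Control+Sham (-2.46 ± 0.20, adjusted p = 0.000331). Its partner Cyba (-0.95) and the small GTPase Rac1 (-0.36) fell less; Rac1 did not meet the rule without DM+RYGB 1 (-0.26) or without Control+Sham 2 or 3 (-0.33 and -0.35), and with scan day as a block 1 of the 14 fell. In DM+Sham, Nox4 differed from the same controls by -1.88 (adjusted p = 0.002), and DM+RYGB differed from DM+Sham by -0.59 (adjusted p = 0.0588). Aldose reductase and related enzymes of the polyol and fructose list fell in 6 of 11 cases, including Akr1b1 (-2.39), Akr1b10 (-4.14) and the sorbitol dehydrogenase Sord (-1.31). Akr1b1 was at -3.24 without DM+RYGB 2 and -1.54 without DM+RYGB 1, and did not meet the rule with scan day as a block (-2.91), where 1 gene of the list fell and 1 rose. Antioxidant genes rose in 4 of 38 cases, the quinone reductase Nqo1 (1.28), Gpx2 (1.12), the NRF2 inhibitor Keap1 (0.92) and Prdx2 (0.70), and fell in 8, among them the plasma glutathione peroxidase Gpx3 (-2.43) and glutaredoxin Glrx (-1.25). The rises were fewer than the 15.1% of all genes, and the falls stand beside 12% of all genes. With scan day as a block, 1 rose and 2 fell, and Prdx2 did not meet the rule with any 1 array of the 2 groups left out (0.65 to 0.73).

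AMPK genes were called in both directions, with 6 of 24 higher and 4 lower, beside 15.1% and 12% of all genes; their median difference was -0.07, beside 0.59 over all genes. The regulatory subunits Prkag1 (0.82), Prkag2 (0.86) and Prkag3 (2.02) rose. The catalytic subunit Prkaa1 was at -1.60 and -1.67 in DM+RYGB, against -2.26, -2.18 and -2.32 in Control+Sham (0.62 ± 0.10), and did not pass with all scalings. The other catalytic subunit Prkaa2 was at -2.44 and -1.47 in DM+RYGB, against -1.58, -1.61 and -1.50 in Control+Sham (-0.39 ± 0.26, adjusted p = 0.219). For Prkaa2 the DM+RYGB arrays lay on either side of the controls. The scaffold subunit Prkab1 had a difference of -0.10 ± 0.10 (adjusted p = 0.41). Among the upstream kinases Camkk1 (1.51) rose and Camkk2 (-1.25) fell, and Stk11, which encodes LKB1, had a difference of 1.08 that did not pass with all scalings. With normexp background correction Camkk2 was at 0.94 and did not meet the rule. With scan day as a block, none of the 24 genes rose and 2 fell. These are transcript levels and carry no measure of AMPK phosphorylation.

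Genes of kidney injury fell in 11 of 26 cases. Havcr1, which encodes the injury marker KIM-1, was at -2.92 and -3.10 in DM+RYGB, against -0.98, -0.95 and -1.03 in Control+Sham, about the same in every array of a group (-2.02 ± 0.10, adjusted p = 9.16e-05). Tff3 (-2.86), Gadd45b (-1.82), the stress gene Nupr1 (-1.72) and osteopontin, Spp1 (-1.38), also fell. The 4 that rose were Igfbp7 (1.96), Vim (1.38), Clu (1.34) and Timp2 (0.94). Of these, Igfbp7 did not meet the rule without DM+RYGB 1 (1.39) or without Control+Sham 1 or 2 (both 1.81), Timp2 without DM+RYGB 2 (0.75) or Control+Sham 1 (0.95) and Clu without Control+Sham 1 (1.28), and Clu was at 0.89 without DM+RYGB 2. With normexp background correction 9 of the 26 fell and none rose, and Havcr1 was at -1.09 and did not meet the rule. Lcn2, which encodes the injury marker NGAL, was at -5.61 and -5.34 in DM+RYGB, against -5.42, -5.67 and -5.54 in Control+Sham (0.06 ± 0.14, adjusted p = 0.702), a difference that turned to -0.29 and -1.003 with median and quantile scaling. The arrays of the 2 groups overlapped for Lcn2.

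Matrix genes fell in 11 of 31 cases, with Col4a4 of the glomerular basement membrane at -0.73 and -1.35 in DM+RYGB, against 2.06, 1.99 and 1.93 in Control+Sham (-3.03 ± 0.18). Fibronectin, Fn1 (-1.69), and the collagen Col1a2 (-1.06) fell, although the second probe of Fn1 gave -0.56, and Ccn1 (1.11) and the receptor Tgfbr2 (0.73) rose; without DM+RYGB 1, 5 matrix genes rose. Inflammatory chemokines and cytokines fell in 13 of 34 cases, among them the monocyte attractant Ccl2 (-2.02), Cxcl2 (-2.07), Cxcl10 (-1.64) and Tnf (-1.05). Those that rose were Nos2 (1.89), Ccl21 (1.01), Csf1 (0.89) and Cxcl12 (0.89), whose second probe gave 0.00. Cxcl2 was at -2.97 without DM+RYGB 2 and -1.18 without DM+RYGB 1. Interferon-stimulated genes fell in 9 of 30 cases, beside 12% of all genes. Among them were the antiviral Mx1 (-1.19) and the regulator Irf7 (-0.76), while Oas3 (2.35) and Isg20 (0.83) rose. Several of the rises were lost on leaving out 1 array. Tgfbr2 did not meet the rule with either DM+RYGB array left out (0.73 and 0.72) or without Control+Sham 1 or 3 (0.75 and 0.64), Ccl21 without DM+RYGB 1 (0.67) or with any 1 Control+Sham array left out (0.94 to 1.07), and Isg20 without DM+RYGB 1 (0.66) or with any 1 Control+Sham array left out (0.81 to 0.87). Nos2 did not without DM+RYGB 2 (1.72) or Control+Sham 1 or 2 (1.76 and 1.899), nor Cxcl12 without Control+Sham 1 (0.87). For Ccl2 the difference from the same controls in DM+Sham was -2.03, and DM+RYGB differed from DM+Sham by 0.01 (adjusted p = 0.932). Mx1 lay lower in DM+Sham, at a difference of -1.81, than in DM+RYGB, which exceeded DM+Sham by 0.62 (adjusted p = 0.00674).

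Immediate early genes, which answer within minutes to handling or stress, fell in 9 of 25 cases, beside 12% of all genes. Myc was at -0.68 and -0.81 in DM+RYGB, against 1.52, 1.47 and 1.51 in Control+Sham (-2.25 ± 0.09), and Atf3 at -0.40 and -0.27, against 1.78, 1.78 and 1.68 (-2.08 ± 0.10). Egr2 fell by 2.39, and Fosl1, below background on both DM+RYGB arrays, was at least 6.95-fold lower, while Jund (0.87) rose. With normexp background correction Fosl1 was at 0.90 and Egr2 at -0.74, and neither met the rule. In each of these genes the Control+Sham arrays lay close together. Without DM+RYGB 2, 16 of the list fell, and without DM+RYGB 1, 7; with scan day as a block, 5 fell. Cell cycle genes fell in 13 of 31 cases, beside 12% of all genes, such as Cdk1 (-1.72) and Ccna2 (-1.46), and Tyms (0.80) rose. With normexp background correction 2 of the 31 fell and none rose. Cdk1 was then at -0.81 and Ccna2 at -0.12, and neither met the rule. Jund did not meet the rule without DM+RYGB 2 (0.74) or without Control+Sham 1 or 2 (0.84 and 0.77), nor Tyms without DM+RYGB 1 (0.62) or with any 1 Control+Sham array left out (0.7954 to 0.81). The differences in DM+Sham from the same controls were -2.02 for Myc, -2.33 for Atf3, -1.38 for Cdk1 and -1.58 for Ccna2.

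Of 32 xenobiotic enzymes 14 fell and 1 rose. Cyp2c11, a male-specific cytochrome in the rat, was at -3.46 and -3.62 in DM+RYGB, against -0.21, -0.12 and -0.18 in Control+Sham (-3.37 ± 0.12), and Ephx2, the soluble epoxide hydrolase, fell by 2.33. Cyp1a1, a target of the aryl hydrocarbon receptor, was at -0.31 and -0.58 in DM+RYGB, against -4.08, -4.08 and -3.75 in Control+Sham, an 11.5-fold higher level (3.52 ± 0.27, adjusted p = 0.000284). Ahrr, the repressor of that receptor, fell by 2.08, opposite to Cyp1a1. With normexp background correction Ahrr was at 0.025 and did not meet the rule, while Cyp1a1 was at 3.02 and did. Cyp1a1 was also higher in DM+Sham, by 4.06, and DM+RYGB differed from DM+Sham by -0.54 (adjusted p = 0.159). Cyp2c11 differed from the same controls by -5.98 in DM+Sham, and DM+RYGB exceeded DM+Sham by 2.61 (adjusted p = 0.00018).

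Set beside the difference between DM+Sham and the same controls, the named genes fell into several patterns. Slco1a1, Tff3 and Cyp2c11 were low in both diabetic groups and higher in DM+RYGB than in DM+Sham: Tff3 differed from the controls by -2.86 in DM+RYGB and -6.54 in DM+Sham. The operated rats exceeded DM+Sham in Tff3 by 3.68 (adjusted p = 0.000277), yet all 3 genes were called below the healthy level. Slc4a4, Slc2a2, Havcr1 and Nphs1 lay farther from the controls in DM+RYGB: Slc4a4 differed from DM+Sham by -3.96 (adjusted p = 4.16e-05), Slc2a2 by -3.70 (adjusted p = 0.000219), Havcr1 by -1.40 (adjusted p = 0.000465) and Nphs1 by 2.03 (adjusted p = 0.000699). In Control+RYGB, which also shares the controls, Slc4a4 differed by 1.07, Slc2a2 by 0.96 and Nphs1 by 0.34. For Gadd45b and Ppard, a lipid-sensing receptor, no difference between the diabetic groups passed (adjusted p = 0.105 and 0.832). Gadd45b differed from the controls by -1.82 in DM+RYGB and -2.10 in DM+Sham, and Ppard by -2.29 and -2.22, while a second probe of Ppard gave 0.38 in DM+RYGB. With normexp background correction the DM+RYGB difference of Ppard was -0.21 and did not meet the rule.

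**Figure D5:**
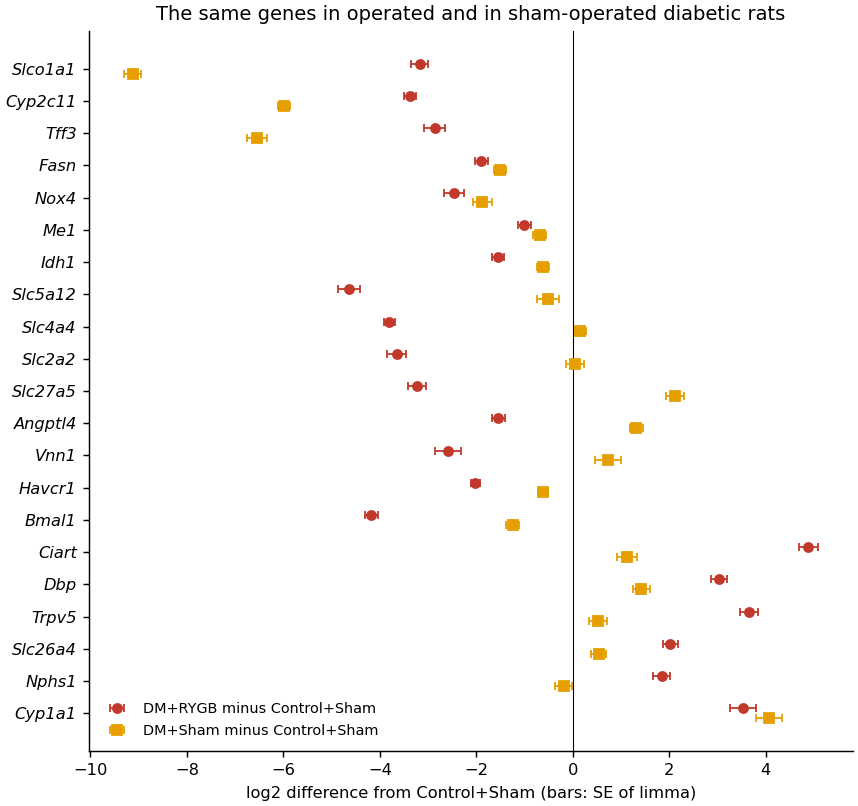
Log2 differences from Control+Sham of 21 named genes in DM+RYGB (red circles) and in DM+Sham (orange squares), with SE bars from limma; both sets of differences use the same 3 Control+Sham arrays. Slco1a1, Cyp2c11 and Tff3 lie nearer 0 in DM+RYGB, at -3.17, -3.37 and -2.86, while the transporters Slc4a4 and Slc2a2 and the clock genes lie farther from 0 in DM+RYGB.

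The largest rises, ranked by the nearer of the 2 DM+RYGB arrays, included genes of varied function. Akr1c2, an aldo-keto reductase, was at 0.64 and -0.13 in DM+RYGB, against -7.68, -7.29 and -7.78 in Control+Sham, where 1 of 3 arrays was well above background (7.84 ± 0.25, adjusted p = 2.48e-05). Wfdc21, a secreted WAP-domain protein, was at -0.17 and -0.76 in DM+RYGB, against -5.59, -5.73 and -5.88 in Control+Sham, and Klkb1, plasma kallikrein, at -1.67 and -2.57, against -7.79, -7.85 and -6.67. Pla2g2a, a secreted phospholipase, and Matn1, a cartilage matrix protein, rose by 4.87 and 4.43. All of these had DM+RYGB arrays far above every control array. Fcrl6, Prm2, Pwwp2a, Krcc1 and Tmem215 rose by 3.97 to 5.07. The other 3 genes were below background on all Control+Sham arrays, so only bounds can be given: the olfactory receptor Or52e8b was at least 10.7-fold higher, the carrier Slco5a1 at least 8.20-fold and the transcription factor Sox8 at least 5.10-fold. Sox8 did not meet the rule with any 1 array of the 2 groups left out (3.80 to 4.59), nor with normexp background correction (2.22). With scan day as a block Sox8 (2.58), Prm2 (5.52), Or52e8b (6.32) and Slco5a1 (3.64) did not meet it. With array weights Sox8 (3.95) and Fcrl6 (5.15) did not. In Control+RYGB the differences from the same controls were 3.41 for Wfdc21, 4.32 for Klkb1, 4.05 for Pwwp2a and 4.10 for Krcc1, against 0.36, 1.07, -0.55 and -0.16 in DM+Sham.

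Among the largest falls, Slc14a2, the vasopressin-regulated urea transporter of the medullary collecting duct, was at -7.55 and -7.07 in DM+RYGB, against 1.06, 1.32 and 0.82 in Control+Sham (-8.38 ± 0.20, adjusted p = 1.63e-05). It was well above background on 1 of the 2 DM+RYGB arrays, and its second probe gave -6.01. The difference was -8.65 in Control+RYGB and -0.57 in DM+Sham from the same controls. The anion carrier Slco4a1 (-5.60), the protease Fam111a (-5.29), Nrip3 (-4.95), the pentraxin Apcs (-4.83), the tight junction protein Cldn23 (-4.57), Gldn (-4.87) and the deacetylase Aadac (-4.63) fell, each below all control arrays. Fam111a and Cldn23 differed from the same controls by 0.46 and 0.67 in DM+Sham, and DM+RYGB lay away from DM+Sham by -5.75 (adjusted p = 4.98e-05) and -5.23 (adjusted p = 4.09e-05). Fgfbp1 and Mmp20 were below background on both DM+RYGB arrays, at least 42.3-fold and at least 5.25-fold lower with this background subtraction. With normexp background correction Fgfbp1 was at -1.14 and Mmp20 at 1.02, and neither met the rule. Nor did Gldn (-1.60) and Aadac (-1.01), while Slc14a2, Slco4a1, Fam111a, Nrip3, Apcs and Cldn23 still did. Slc14a2 and the urothelial genes belong to parts of the kidney outside the cortex. Of 11 urothelial markers 5 fell, Upk2 (-5.28), Krt15 (-5.21), Upk3a (-3.13), Upk1a (-1.91) and Upk1b (-1.84, with 0.66 by its second probe), and 2 rose, Krt7 (1.67) and Tp63 (2.01, with -3.21 by its second probe). Upk2 and Krt15 were each well above background on 1 of the 2 DM+RYGB arrays. With normexp background correction Upk2 (-1.43), Krt15 (-1.17) and Upk1a (-0.86) did not meet the rule. The list averaged -2.89 and -3.29 in DM+RYGB, -4.59 to -4.71 in DM+Sham, -3.69 to -4.12 in Control+RYGB and -2.02, -2.13 and -1.95 in Control+Sham, so all other groups lay below the Control+Sham arrays. The part of dissection in these falls was not tested.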

How the data were processed

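Spot intensities of 11 single-colour arrays were extracted by the authors with Feature Extraction 11.0.1.1, per the file headers, with background subtracted and no scaling between arrays. The probe annotation names build rn4, so no coordinates are taken from it. The authors' deposited table of log2 values served as an alternative; its scale and direction were inferred from its match to the scanner values, and how it was made is not given in the sources used here. Software flags (background, outlier, saturation, unit other) come from the same deposited scanner files.

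Control spots and outlier-flagged spots were left out, spots of a probe averaged (30367 probes, 18005 with 1 gene symbol, 12362 with none here), and log2 intensity minus each array's 75th percentile was analysed. Kept were 28489 probes called well above background in 2 or more arrays, with the brightest probe for each gene. Less than the noise between repeated spots separated DM+Sham 2 from 3 and Control+RYGB 2 from 3 (0.0202 against 0.0723 and 0.0706; 0.0491 against 0.0959 and 0.0809), and each such couple was counted as 1 sample, leaving 9 samples and 5 residual degrees of freedom. All p-values are from limma 3.58.1 in R 4.3.3 with Benjamini-Hochberg adjustment over all genes, and the fit was tested on simulated data. Where no array of a group measured a gene above background, the fold is a bound set against the lowest signal above background. The number of arrays limits the precision.

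Members, lists and alternatives were chosen with earlier results of these data known. The naming rule took the 15 largest rises and falls by the nearer DM+RYGB array, the 4 changed members with the smallest p in each list, the brightest markers of other tissues, and a fixed set. The following genes were named after their values were seen: Pck1, Slco3a1, Cubn, Hnf4a, Slc12a3, Wt1, Trpc6, Aqp4, Elf5, Sox17, Plvap, Dbp, Per1, Per2, Per3, Cry2, Nr1d2, Npas2, Nfil3, Akr1b1, Agpat2, Cyp4a8, Abcb4, Ass1, Glul, Igfbp7, Vim, Clu, Timp2, Tgfbr2, Spp1, Cxcl2, Nos2, Tnf, Ccl21, Cxcl12, Oas3, Jund, Tyms, Gpx2, Prdx2, Krt7, Upk1a, Ckm, Zbtb16, Cldn6, Cldn9, Clock, Cry1, Csnk1d. Of 1158 list entries, 1156 were matched to RefSeq symbols. Promoters were read from RefSeq (GRCr8). Some genes that the rule names are not reported here.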

Additional observations from a re-analysis of the deposited data

How the results depend on the processing

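The count of changed genes, 6841 as reported, was 15280 with 75th percentile scaling alone (an alternative chosen after seeing the data), 13198 with median scaling, 10453 with the authors' deposited table, 4145 with array weights and 3086 with normexp background correction. In fits that kept the 11 arrays separate it was 8242 without a block, 7697 with the replicate number as a block and 1827 with scan day as a block. With quantile scaling alone it was 10234. Leaving out 1 array or 1 merged pair at a time gave 4802 to 7131 genes, the lowest without Control+Sham 1. The replicate numbers were not taken as a pairing. Deviations of same-numbered arrays of the 2 groups from their group means had r = 0.048 and -0.07. With 2 DM+RYGB arrays these deviations mirror each other, so the values cannot decide whether arrays were paired. Single scalings drop the demand that a gene pass under all 3, so they give more genes by construction; the cause of the other shifts was not tested. Of 252 named genes 243 had changed. Of these 243, 105 no longer met the rule with scan day as a block, 92 with normexp, which also turned 9, 43 with array weights and 37 with only the 2 groups fitted. Normexp raised the median difference of all genes to 1.19 and turned 11 named genes, those 9 included, from lower to higher: Mmp20 1.02, Rac1 0.32, Camkk2 0.94, Slc16a6 0.66, Ahrr 0.025, Fosl1 0.90, Cdca3 0.20, Prkaa2 0.13, Slc5a1 0.56, Nfil3 0.16 and Tnf 0.60. With scan day as a block, falls were counted in 7 of 22 glucose and amino acid carriers, 6 of 26 organic ion transporters, 8 of 24 cholesterol, 6 of 22 fatty acid synthesis, 3 of 14 NADPH, 6 of 32 xenobiotic, 7 of 26 injury, 4 of 31 matrix, 4 of 34 inflammatory, 2 of 30 interferon and 6 of 31 cell cycle genes, and rises in 5 of 17 podocyte markers and in no AMPK gene. The mean of the probes turned Tp63 to -0.60 and Csnk1d to 0.33. Without DM+RYGB 1, Prkaa2 was 0.091, and without DM+RYGB 2 it was -0.88. Lcn2 was -0.29 with median scaling, -1.003 with quantile scaling, -0.93 in the deposited table, -0.033 with array weights, -0.071 without DM+RYGB 2 and -0.0015 without Control+Sham 2.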

Other observations

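Some junction and hormone genes outside the groups above differed between DM+RYGB and Control+Sham. Among 26 claudins and junction genes 4 rose and 6 fell, beside 15.1% and 12% of all genes, so the rises were no more frequent than among all genes; without DM+RYGB 2, 7 rose and 7 fell, and with scan day as a block 2 rose and 2 fell. Cldn2, the cation and water pore of the proximal tubule, was at -0.83 and -1.38 in DM+RYGB, against 0.70, 0.67 and 0.62 in Control+Sham (-1.77 ± 0.16), and Cldn5, the claudin of endothelium and podocytes, at 1.24 and 1.26, against -0.53, -0.36 and -0.70 (1.78 ± 0.12). Both DM+RYGB arrays lay on the same side of all control arrays for each gene. Cldn6 (2.78), Cldn9 (2.23) and the junction scaffold Tjp3 (1.74) rose as well, but Cldn6 did not meet the rule without DM+RYGB 2 (2.03) or Control+Sham 1 or 2 (2.59 and 2.62), nor Cldn9 with either DM+RYGB array left out (1.95 and 2.51) or without Control+Sham 2 or 3 (2.34 and 1.902). In the renin-angiotensin and endothelin list, the angiotensin-degrading peptidases Mme (-1.44) and Enpep (-1.16) fell and the prostaglandin receptor Ptger4 (2.06) rose. Of 25 corticosteroid and insulin signalling genes 8 rose and 5 fell; with scan day as a block, 1 rose and 4 fell. The glucocorticoid-responsive Fkbp5 was at 1.76 and 1.74 in DM+RYGB, against 0.47, 0.43 and 0.47 in Control+Sham (1.30 ± 0.13), and Zbtb16, another such gene, rose by 2.65 but did not meet the rule with any 1 Control+Sham array left out (2.54 to 2.71), while the growth factor-binding proteins Igfbp1 (-1.64) and Igfbp4 (-1.70) fell.

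Gene lists of other tissues held further changes. Skeletal muscle genes Ckm (6.59), Tnnc2 (3.78), Myh1 (2.92) and Tnni2 (1.55) rose and Casq1 (-2.17) fell, and Ckm was at -4.01 and 3.19 in DM+RYGB, against -7.06, -7.11 and -6.83 in Control+Sham, so DM+RYGB 2 was the higher array, as it was for the heart muscle list. The difference of Ckm was 2.99 without DM+RYGB 2 and 10.19 without DM+RYGB 1, and it did not meet the rule with any 1 Control+Sham array left out (6.54 to 6.68). Tnnc2 was at 2.38 without DM+RYGB 2, and with scan day as a block no skeletal muscle gene rose. Fibrinogen chains Fga (-2.85) and Fgb (-1.65) and Apoh (-2.11) fell and Ambp (1.94) rose among 16 liver genes. In the urea, ammonia, creatine and polyamine list 10 of 26 fell, such as Ass1 (-1.66) and Gatm (-1.59), the first enzyme of creatine synthesis, and 6 rose, such as Glul (1.49), which makes glutamine from ammonium and did not meet the rule without DM+RYGB 1 (1.26). With scan day as a block, 3 of these fell and 2 rose.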
